A study of Mus musculus with 2 samples.

Results

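The cells described here were the endothelial cells (ECs) in S phase, the stage of the cell cycle in which DNA is copied, among ECs sorted from subcutaneous Lewis lung carcinoma (LLC) tumours of adult C57BL/6 mice (per the methods C57BL/6 J males, aged 8 to 9 weeks when the tumour cells were implanted). LLC is a mouse lung carcinoma cell line that forms vascularised tumours under the skin of syngeneic mice. Each tumour received either 14 µg of cGAMP in a volume of 70 µl or PBS only. cGAMP is a cyclic dinucleotide that binds STING, which switches on type I interferon genes. Per the methods the form injected was 3'3'cGAMP. Live CD45- CD31+ cells were sorted and profiled by droplet single-cell RNA-seq. One library was made per condition, from 1 mouse each, so conditions, mice and library preparations cannot be told apart. Sampling took place at 24 h by the methods and at 6 h by a supplementary legend. Both groups carried the same tumour and genotype. The sort was meant to leave out leucocytes and cells without CD31, and per the methods clusters of other cells that remained were removed afterwards.

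Each of the 3857 ECs in both libraries received 2 scores from the deposited values. The S score was the mean of 7 genes of DNA replication, namely Hist1h1b, Hist1h2ap, Hist1h2ae, Rrm2, Clspn, Pclaf and Esco2. The G2/M score was the mean of 6 genes of mitosis, namely Cenpf, Ube2c, Cdc20, Ccnb1, Plk1 and Hmmr. Cells in the top 15% by the S score that were not in the top 8% by the G2/M score were taken as S-phase ECs. This rule kept 400 of 3857 ECs (10.4%). Of these, 263 of 2517 came from the PBS-treated tumour (10.4%, exact binomial interval 9.28 to 11.7) and 137 of 1340 from the cGAMP-treated tumour (10.2%, 8.65 to 12.0). The 2 intervals overlapped almost entirely. Intervals here and below are at the 95% level and cover counting error only, not the difference between mice. A member was thus chosen by measured values of 13 genes, and all contrasts of these cells with the other ECs are a description with no test.

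The S score was continuous. The lowest score inside the top 15% was 0.433 and the highest outside it was 0.427, both as means of natural log values, and 1900 cells scored 0. Of the 400 S-phase ECs, 17 lay within 10% above the S limit and 33 lay within 10% below the G2/M limit of 0.958, where the next cell scored 0.957. Within the top 15% by the S score stood 402 PBS-treated ECs (16.0%) and 177 cGAMP-treated ECs (13.2%). Of these, 139 and 40 were also in the top 8% by the G2/M score and were left out. ECs in that G2/M range made up 9.85% (8.72 to 11.1) of the PBS library and 4.55% (3.50 to 5.81) of the cGAMP library. The G2/M intervals lay apart while those of the S-phase ECs overlapped, each time with 1 library per condition. The scatter of both scores shows how far the groups run into each other.

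**Figure D1:**
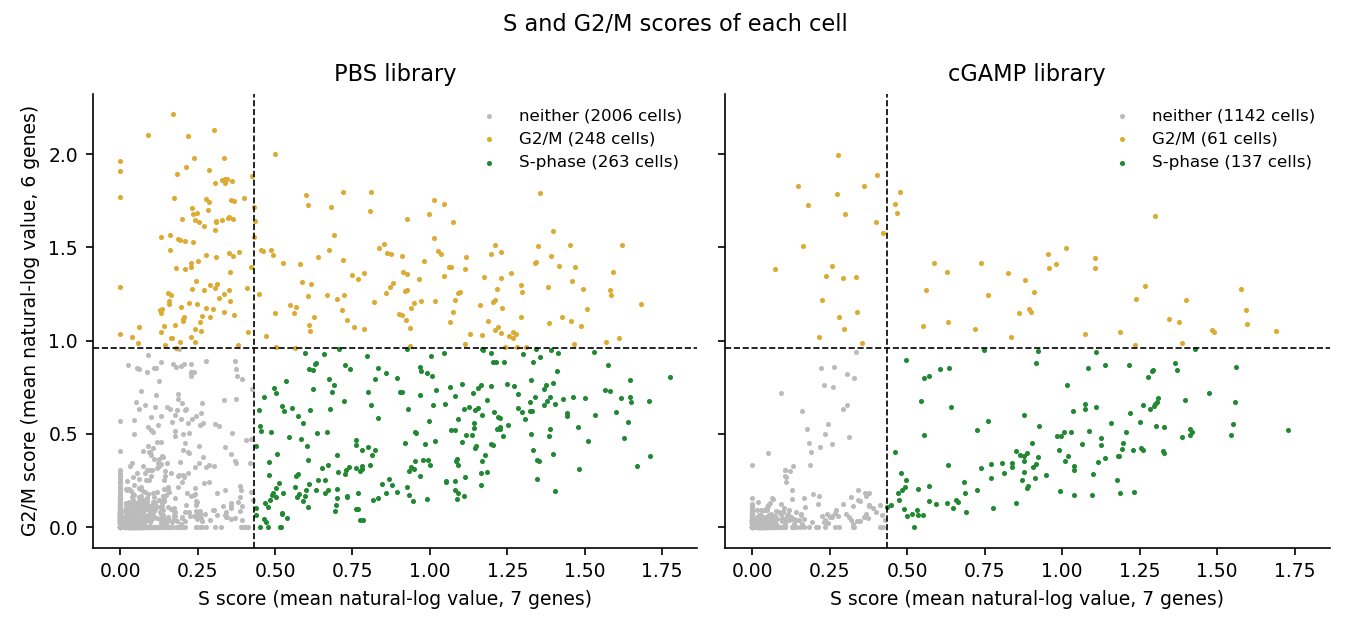
S score (x axis, mean natural log value of 7 genes) against G2/M score (y axis, mean of 6 genes) for every EC, in one panel per library, with lines at the limits of the top 15% by the S score and the top 8% by the G2/M score. S-phase ECs (263 in PBS, 137 in cGAMP) fill the lower right of each panel, with no gap between them and the cells on either side of the lines.

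Before S phase a cell loads the MCM helicase on its origins. E2F factors, freed from the retinoblastoma proteins by cyclin D and cyclin E kinases, then switch on the genes for helicase loading, DNA polymerases, nucleotide synthesis and fork repair. Replication-dependent histones are made in S phase only, from clustered genes whose mRNAs end in a stem-loop bound by Slbp rather than in a poly(A) tail, so libraries primed on poly(A) read them incompletely. In tumours, ECs enter the cycle during vessel sprouting, largely under VEGF-A, and stalk cells are known to divide more than the migrating tip cells.

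The promoters of 4 genes of the S score were searched for elements known from cell cycle, histone and interferon genes. Each promoter below runs from 250 bases before to 50 bases after the RefSeq start site (build GRCm38.p6). Capitals mark matches on either strand to any of 6 elements. The E2F site was searched as TTTNNCGC, the histone octamer as ATTTGCAT and the interferon-stimulated response element (ISRE) as GAAANNGAA. The CCAAT box was searched by the letters of its name. The other elements were the TATA box, as TATAAA, and the CHR element known from genes of G2 and mitosis, as TTTGAA. The CHR letters can overlap an ISRE, and overlapping matches run together in capitals.
Clspn, which stabilises stalled forks, chr4:126556730-126557029, + strand, 1 E2F site and 2 CCAAT boxes: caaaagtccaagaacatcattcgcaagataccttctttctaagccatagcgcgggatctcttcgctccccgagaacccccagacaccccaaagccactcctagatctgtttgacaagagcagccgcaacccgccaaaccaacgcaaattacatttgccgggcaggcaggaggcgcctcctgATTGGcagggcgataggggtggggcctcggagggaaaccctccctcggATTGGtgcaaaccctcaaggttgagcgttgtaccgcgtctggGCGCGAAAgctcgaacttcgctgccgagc
Pclaf, the PCNA clamp-associated factor, chr9:65890073-65890372, + strand, 1 E2F site and 2 CCAAT boxes: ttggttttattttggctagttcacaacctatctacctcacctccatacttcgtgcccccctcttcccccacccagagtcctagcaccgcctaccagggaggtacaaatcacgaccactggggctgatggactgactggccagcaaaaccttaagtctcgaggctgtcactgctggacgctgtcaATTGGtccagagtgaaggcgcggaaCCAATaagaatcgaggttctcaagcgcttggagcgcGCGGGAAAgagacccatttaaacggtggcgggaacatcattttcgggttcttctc
Rrm2, the S-phase subunit of ribonucleotide reductase, chr12:24708004-24708303, + strand, 1 CCAAT box: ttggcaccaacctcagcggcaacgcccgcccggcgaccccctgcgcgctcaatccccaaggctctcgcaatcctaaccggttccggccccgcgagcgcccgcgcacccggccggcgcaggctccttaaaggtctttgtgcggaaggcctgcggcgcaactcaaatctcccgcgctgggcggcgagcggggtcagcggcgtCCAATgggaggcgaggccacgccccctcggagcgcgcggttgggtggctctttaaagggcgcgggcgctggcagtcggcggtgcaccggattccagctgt
Hist1h1b (H1f5 in RefSeq), a linker histone, chr13:21780576-21780875, - strand, 3 CCAAT boxes, 1 TATA box, 1 E2F site, 1 CHR element and 1 ISRE: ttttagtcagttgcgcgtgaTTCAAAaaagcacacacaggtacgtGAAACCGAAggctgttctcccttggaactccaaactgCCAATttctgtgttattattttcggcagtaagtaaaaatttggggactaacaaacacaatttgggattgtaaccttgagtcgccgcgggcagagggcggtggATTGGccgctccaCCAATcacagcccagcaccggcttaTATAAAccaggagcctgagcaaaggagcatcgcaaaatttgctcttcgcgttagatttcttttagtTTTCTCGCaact

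The Hist1h1b promoter thus had the TATA box and CCAAT boxes usual for histone genes, and the Clspn and Pclaf promoters had an E2F site beside CCAAT boxes and no TATA box. A letter match is a description and not evidence of binding. Among 32851 mouse promoters of the same length, 5.17% held the E2F letters, 37.4% a CCAAT box, 17.9% the CHR letters, 13.6% a TATA box, 1.74% the octamer and 8.56% an ISRE.

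The S-phase ECs were large by RNA content. Their median was 45634 UMIs (unique molecular identifiers, 1 per captured RNA molecule) per cell in PBS (41599 to 48740) against 28290.5 in the other ECs, a ratio of 1.61. In cGAMP it was 58405 (53111 to 63638) against 38834, a ratio of 1.5. The G2/M ECs had medians of 41918.5 and 60160. Genes per cell were 6454 against 5156 in PBS and 7007 against 5822 in cGAMP. The S-phase ECs therefore held more UMIs than the other ECs in both libraries and about as many as the G2/M ECs. Their mitochondrial share did not stand apart, at a median of 4.31% of UMIs against 4.51% in PBS and 2.90% against 2.86% in cGAMP. When each library was split into 3 equal groups (tertiles) by UMIs per cell, S-phase ECs made up 3.34%, 9.42% and 18.6% of PBS ECs and 3.58%, 9.17% and 17.9% of cGAMP ECs, from the shallowest to the deepest tertile. The part that depth has in these shares was not tested, and shares of cells with a UMI are therefore given below after thinning every cell to 5000 UMIs. Doublets were not removed, and the UMI ratios without the 5% of cells with the most UMIs are among the alternatives given at the end.

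All 18 endothelial genes were detected in both groups of S-phase ECs, and every S-phase EC had a UMI of at least 1 of them. Levels are given from here on in CPM, the UMIs of a gene divided by all UMIs summed over a group of cells and multiplied by 1000000. Pecam1 (CD31, on which the cells were sorted) stood at 863 CPM (848 to 879) in PBS S-phase ECs against 958 in the other ECs, and at 778 (760 to 797) against 832 in cGAMP. Cdh5 (VE-cadherin) stood at 1024 against 1167 in PBS and at 967 against 1015 in cGAMP. Both were slightly lower in S-phase ECs and 0 of the 18 endothelial genes passed 2-fold in either library. Markers of other cell types were low. The leucocyte markers, 14 of 17 of which were in the files, summed to 21.6 CPM (19.2 to 24.2) in PBS S-phase ECs and 22.7 in the other ECs, and to 50.9 (46.3 to 55.8) and 64.2 in cGAMP. The pericyte and fibroblast markers summed to 58.6 against 77.9 CPM and to 46.3 against 77.0 CPM. The epithelial markers summed to 4.57 against 4.38 CPM and to 8.80 against 17.7 CPM. The T cell gene Cd3e, the NK cell gene Nkg7 and the B cell gene Ms4a1 had 0 UMIs in S-phase and other ECs of both libraries. Epcam, the epithelial adhesion molecule, had 0 UMIs in S-phase ECs of both libraries. Without thinning, 54.0% of PBS and 86.9% of cGAMP-treated S-phase ECs had a UMI of a leucocyte marker. In the other ECs these shares were 41.7% and 79.1%. Ptprc, the gene of the CD45 antigen used to exclude leucocytes, had 3 UMIs in all PBS S-phase ECs. When cells with a UMI of Ptprc, S100a8 or S100a9 were left out, 253 of 263 PBS and 112 of 137 cGAMP-treated S-phase ECs stayed members. The sums were thus similar or lower in S-phase ECs than in the other ECs.

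Beyond the genes of the rule, the replication programme was higher as a whole in the S-phase ECs. A change of 2-fold was used as a limit throughout, because 1 library per condition allows no test. Of 5816 genes at 20 CPM or more, 236 (4.06%) were at least 2-fold higher in S-phase ECs than in the other ECs of both libraries, and 8 (0.138%) at least 2-fold lower. With a minimum of 5 CPM, as used for the gene lists, 4.2% of 9588 genes were higher and 0.574% lower in PBS, and 4.94% of 9496 genes were higher and 0.927% lower in cGAMP. The median over all these genes was -0.02 on the log2 scale in both libraries. The lists below were chosen with the rule's contrast in view, so their counts describe the cells and are no independent support. Most of the other ECs were in neither class, that is under the limits that define S-phase and G2/M ECs (2006 of 2254 in PBS, 1142 of 1203 in cGAMP). A higher level than in the other ECs can thus be shared with the G2/M ECs.

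Among the regulators of S-phase entry, 11 of 18 genes were at least 2-fold higher in each library, with medians of 1.26 in PBS and 1.37 in cGAMP (log2). The E cyclins, which drive CDK2 at the G1/S boundary, led the genes outside the rule when ranked by the smaller of the 2 library ratios. Ccne1 stood at 50.2 CPM (46.5 to 54.0) in PBS S-phase ECs against 3.86 in the other ECs, and at 65.9 (60.7 to 71.4) against 5.42 in cGAMP. Ccne2 stood at 54.1 against 4.79 and at 55.4 against 4.67 CPM. The log2 ratios were 3.70 and 3.6 for Ccne1 and 3.50 and 3.57 for Ccne2, so both genes differed alike in the 2 libraries. Over the G2/M ECs they were 2.61 and 1.95 for Ccne1 and 3.28 and 2.46 for Ccne2. E2f1, the activating E2F, stood at 62.6 against 10.7 CPM in PBS and 64.2 against 13.3 CPM in cGAMP. E2f8, a repressing E2F that is itself a target of E2F1, had log2 ratios of 2.95 and 3.58, but of 0.78 and 0.42 over the G2/M ECs. The D cyclins, which act earlier in G1, did not follow. Ccnd1 was the most abundant gene of the list, at 423 against 340 CPM in PBS and 470 against 377 CPM in cGAMP, and Ccnd2 was lower in S-phase ECs, with log2 ratios of -0.75 and -0.47. After thinning, a UMI of Ccne1 was found in 20% of PBS S-phase ECs and 1.82% of other ECs, and in 30.4% and 1.85% in cGAMP. For Lyz2, a myeloid gene that ECs should lack, the same shares were 1.57% and 2.46% in PBS and 4.44% and 6.29% in cGAMP. The share in the other ECs was therefore at or below that background, while the share in S-phase ECs stood above it.

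Genes that load and fire origins were higher in 24 of 25 cases in each library, 19 of them at least 2-fold, with medians of 1.71 and 1.78. Mcm5 and Mcm7, subunits of the helicase, stood at 121 against 26.8 CPM and 99.4 against 19.1 CPM in PBS, and at 139 against 32.2 and 123 against 23.9 CPM in cGAMP. Gmnn, the geminin that blocks relicensing once S phase has begun, stood at 126 against 30.3 CPM in PBS and 167 against 29.1 CPM in cGAMP. The largest ratio was that of Mcm10 in PBS (2.76) and of Ticrr in cGAMP (3.03), both needed for origin firing. Orc4, an origin recognition subunit, was not higher with them (log2 ratios of -0.18 and -0.12). The other 6 genes of the list did not pass 2-fold.

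The polymerases and fork proteins had medians of 1.56 and 1.47, with 21 and 23 of 30 genes at least 2-fold higher. Pcna, the sliding clamp, stood at 141 CPM (135 to 147) against 33.6 in PBS and at 185 CPM (177 to 194) against 48.5 in cGAMP. Lig1, which joins Okazaki fragments, had the largest ratio of the list in both libraries (2.52 and 2.46), at 143 against 25 CPM and 149 against 27.0 CPM. Ssrp1 and Supt16, the subunits of the FACT histone chaperone, were abundant but differed less, with ratios of 0.94 and 0.66 in PBS and 0.96 and 0.59 in cGAMP. Pold4, the smallest subunit of polymerase delta, was lower in both libraries (-0.29 and -0.15). It is known as the subunit that is removed during S phase, at the protein level.

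For nucleotide supply, 11 of 18 genes in PBS and 10 of 18 in cGAMP were at least 2-fold higher. Dut, which removes dUTP, stood at 251 against 54.5 CPM and 294 against 61.9 CPM. Tyms, the thymidylate synthase, stood at 249 against 95.6 CPM and 310 against 115 CPM. Rrm1, the constant subunit of ribonucleotide reductase, had ratios of 1.78 and 2.04, and Rrm2 of the rule 2.80 and 3.32. Rrm2b, the p53-inducible subunit, was not higher (-0.30 in PBS). Samhd1, which breaks dNTPs down, had the lowest ratio of the list in cGAMP, at -0.32. The list was therefore mixed, with 11 and 10 of its 18 genes past 2-fold.

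Genes for chromatin assembly were higher in 16 of 16 cases in both libraries (medians of 1.69 and 1.73), among them Dnmt1, the maintenance DNA methyltransferase, at 142 against 41.2 CPM and 165 against 46.3 CPM. Chaf1b, a subunit of the CAF-1 chaperone, had the largest ratio (2.72 and 2.66). Fork protection and repair genes had medians of 2 and 2.20, with 23 of 28 and 26 of 29 measured genes at least 2-fold higher. Brip1, a helicase of the Fanconi anaemia pathway, had ratios of 2.91 and 2.87, at 31.8 against 4.24 CPM and 23.2 against 3.16 CPM. Over the G2/M ECs its ratios were 0.91 and 0.40, within 2-fold. Tipin, which protects paused forks, stood at 149 against 44.8 CPM and 193 against 60.3 CPM. Cohesion genes differed little, with medians of 0.45 and 0.49 and 4 of 15 genes past 2-fold. Smc3, a ring subunit, stood at 150 against 82.5 CPM and 144 against 76.6 CPM, and the largest ratios were those of Dscc1 in PBS (3.08) and Cdca5 in cGAMP (3.21), which act at the fork and in sister locking. The 43 genes of the S list distributed with the Seurat package, which overlaps several lists above, were higher in all 43 cases in each library and at least 2-fold higher in 39 and 42.

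**Figure D2:**
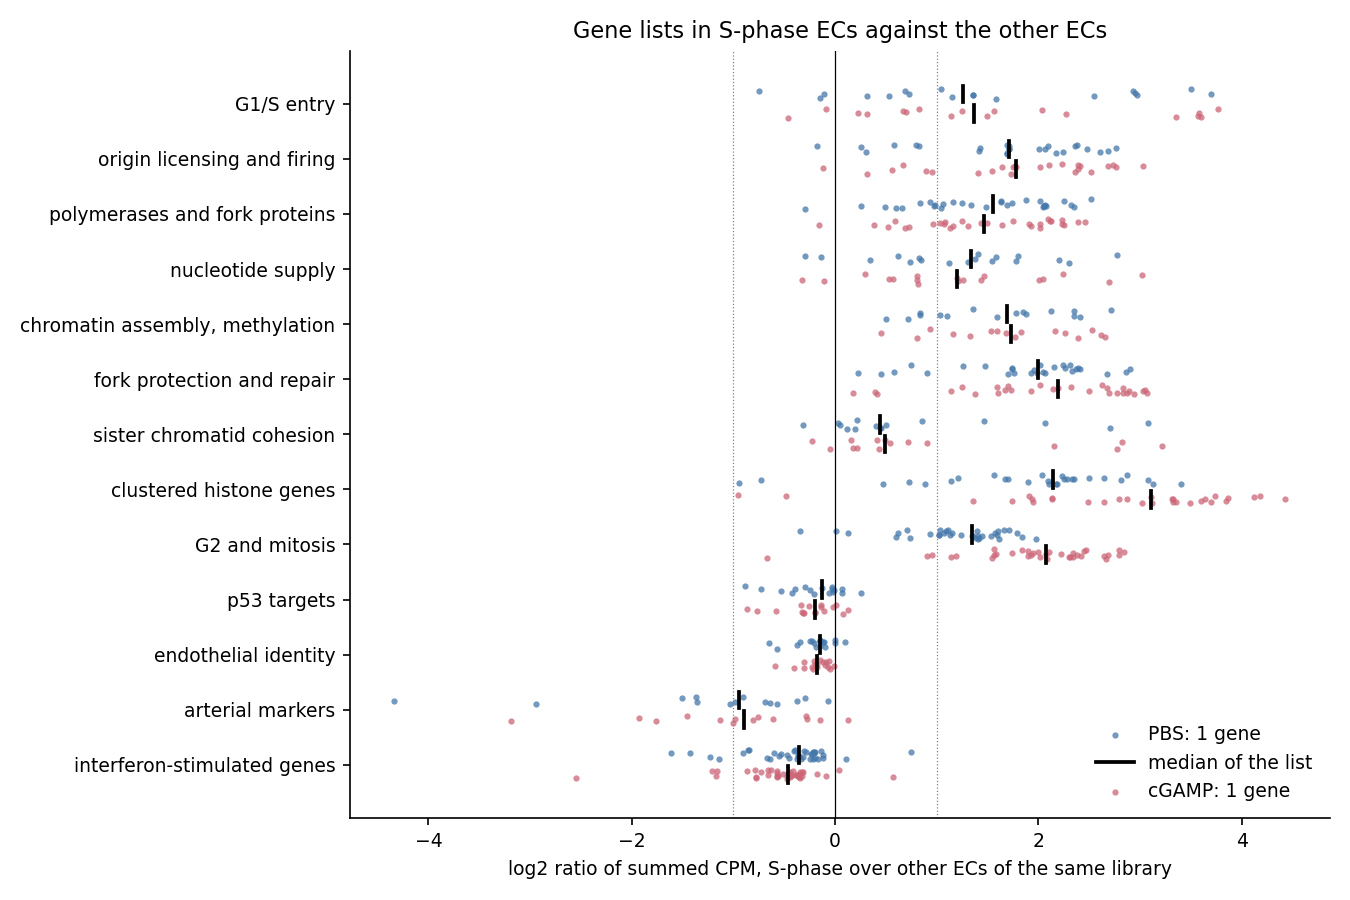
Log2 ratio of summed CPM in S-phase ECs over the other ECs of the same library (x axis) for the genes of 13 lists (y axis), 1 point per gene and library, with a black bar at the median of each list and dotted lines at 2-fold. Medians of the replication lists stand between 1.20 and 3.11, those of the cohesion list at 0.45 and 0.49, and those of the endothelial, arterial and interferon lists below 0.

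Of the clustered histone genes, 23 of 28 measured in PBS and 28 of 30 in cGAMP were at least 2-fold higher, with medians of 2.14 and 3.11. Hist1h1a, a linker histone, followed the E cyclins when genes were ranked by the smaller of their 2 library ratios, at 24.3 CPM (21.8 to 27.1) against 2.30 in PBS and 33.3 CPM (29.6 to 37.3) against 1.54 in cGAMP. Over the G2/M ECs its log2 ratios were 0.83 and 0.86, within 2-fold. Hist1h1e, another linker histone, stood at 204 against 47.2 CPM and 187 against 21.7 CPM. Hist1h2bc (-0.94 and -0.96) and Hist3h2a (-0.73 and -0.49) were lower in S-phase ECs in both libraries, neither past 2-fold. Hist1h2bc is known to give polyadenylated mRNA in cells outside S phase. Together, clustered histone genes took a median of 0.137% of the UMIs of an S-phase EC against 0.0236% in the other ECs of PBS, and 0.151% against 0.0136% in cGAMP. Many of these genes are near-identical copies and the assignment of reads among them is uncertain.

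Genes of G2 and mitosis were also higher than in the other ECs, with 27 and 32 of 35 genes past 2-fold and medians of 1.35 and 2.08. Top2a, the topoisomerase that untangles sister chromatids, stood at 394 CPM (384 to 405) against 99.8 in PBS and at 326 CPM (315 to 338) against 50.5 in cGAMP. Mki67, the Ki-67 proliferation antigen, stood at 285 against 93.4 CPM and 188 against 30.0 CPM. Since the other ECs contain the G2/M ECs, S-phase ECs were also set against each group separately. Against the G2/M ECs the median of this list was -1.04 in PBS and -1.18 in cGAMP. Against the ECs in neither class it was 3.11 and 3.81. The lower level than in the G2/M ECs follows from the rule, which kept the cells with the highest mitotic scores out. The S-phase ECs and the ECs in neither class lay under the same G2/M limit. Their difference on this list was not set by that limit and is a description with no test. For the G1/S list the median against the G2/M ECs was 0.60 and 0.66, led by Ccne2 (3.28 and 2.46). For clustered histone genes it was -0.02 and 0.04. By cell, the median histone share of UMIs was 0.137% (0.123 to 0.158) in S-phase and 0.0831% (0.0535 to 0.117) in G2/M ECs of PBS, with intervals apart, and 0.151% (0.122 to 0.167) and 0.110% (0.0347 to 0.183) in cGAMP, with intervals that overlapped. Of the G2/M ECs, 139 of 248 in PBS and 40 of 61 in cGAMP were themselves in the top 15% by the S score.

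Within the S-phase ECs, cells differed widely in histone RNA. They were divided into tertiles within each library by the share of clustered histone UMIs (88, 88 and 87 cells in PBS, 46, 46 and 45 in cGAMP). The tertiles held 638, 1417 and 2806 CPM of histone RNA in PBS and 541, 1463 and 2764 CPM in cGAMP. The mitosis list was higher with more histone RNA, from 2586 over 3573 to 5304 CPM in PBS and from 2213 over 3257 to 4615 CPM in cGAMP. Licensing genes differed less, from 1231 over 1362 to 1935 CPM and from 1607 over 1682 to 1974 CPM. G1/S regulators differed little, at 1228, 1220 and 1352 CPM in PBS and 1427, 1472 and 1402 CPM in cGAMP. The sums of the tertiles therefore differed most for mitotic genes, less for licensing genes and least for G1/S genes, of which Ccnd1 makes up a large part. Slbp, the histone mRNA binding protein, went from 109 over 150 to 207 CPM and from 134 over 164 to 241 CPM, and Ccne1 from 31.4 over 48.1 to 84.0 CPM and from 49.1 over 70.5 to 85.0 CPM. Ccne2 went from 36.7 over 55.1 to 80.9 CPM and from 45.9 over 59.2 to 64.5 CPM, so the E cyclins and Slbp were highest in the tertile with the most histone RNA although the G1/S sum was flat. That tertile also had the fewest UMIs per cell, with medians of 36423 in PBS and 48286 in cGAMP against 51276.5 and 59241.5 in the tertile with the least, and the part of depth in these differences was not tested. Because 3 genes of the S score are histones, this order is not independent of the rule.

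**Figure D3:**
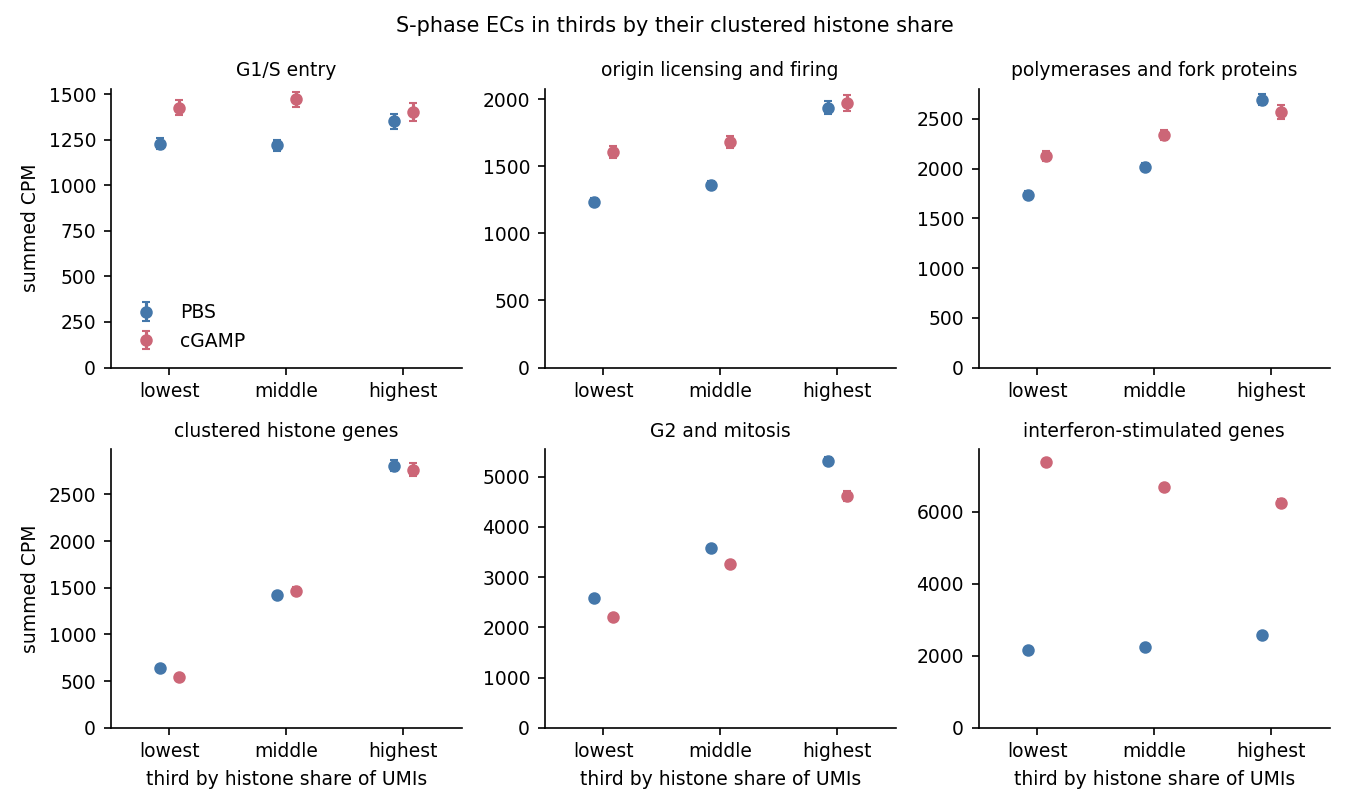
Summed CPM of gene lists (y axis, with Poisson intervals) in S-phase ECs split into tertiles by their share of clustered histone UMIs (x axis), for PBS and cGAMP. Mitotic genes go from 2586 to 5304 CPM in PBS and from 2213 to 4615 CPM in cGAMP, while G1/S regulators stay between 1220 and 1472 CPM in every tertile.

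Slfn9, a Schlafen family gene, was the leading gene of the list of interferon-inducible replication and nucleotide restriction factors. It stood at 130 CPM (124 to 136) in PBS S-phase ECs against 18.5 in the other ECs and at 169 CPM (161 to 178) against 23.4 in cGAMP, with log2 ratios of 2.82 and 2.85. After thinning, 47.1% (40.8 to 53.4) of PBS S-phase ECs had a UMI against 7.12% of other ECs, and 53.3% against 7.55% in cGAMP. It was also higher than in the G2/M ECs, by 1.83 and 1.36. Its relative Slfn5 went the other way, at 71.8 CPM (67.4 to 76.4) against 202 in PBS and 66.4 CPM (61.1 to 71.9) against 234 in cGAMP. Of the 2 Schlafen genes, one was thus among the replication genes by level and the other among the 8 genes at least 2-fold lower in both libraries. Slfn9 did not respond to cGAMP by 2-fold in S-phase ECs (0.38), and Slfn5 did not either (-0.11), whereas Isg15, an ubiquitin-like antiviral protein, did, from 186 to 597 CPM. The Slfn9 and Isg15 promoters are given for comparison with those above.
Slfn9, chr11:82991781-82992080, - strand, 1 CCAAT box and 1 ISRE: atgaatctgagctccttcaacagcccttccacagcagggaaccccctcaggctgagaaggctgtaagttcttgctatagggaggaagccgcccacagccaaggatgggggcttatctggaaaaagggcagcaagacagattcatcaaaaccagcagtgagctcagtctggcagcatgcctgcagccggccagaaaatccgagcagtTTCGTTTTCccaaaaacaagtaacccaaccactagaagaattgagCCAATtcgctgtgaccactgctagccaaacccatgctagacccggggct
Isg15, chr4:156200769-156201068, - strand, 3 ISRE matches that overlap: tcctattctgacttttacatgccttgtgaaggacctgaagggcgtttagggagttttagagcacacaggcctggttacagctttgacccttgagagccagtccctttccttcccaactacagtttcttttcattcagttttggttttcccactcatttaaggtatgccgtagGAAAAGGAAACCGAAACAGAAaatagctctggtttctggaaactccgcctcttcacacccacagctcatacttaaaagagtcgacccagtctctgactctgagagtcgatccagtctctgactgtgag

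Over the 236 genes higher in S-phase ECs, 192 matched a RefSeq symbol, with 223 promoters. Of these, 26.9% held the E2F letters, against 9.26% of the 6002 promoters of all tested genes. A CCAAT box stood in 59.6% against 37.3% and the CHR letters in 31.8% against 11.8%. The ISRE letters stood in 8.97% against 7.08% and the octamer in 0.897% against 1.05%. E2F, CCAAT and CHR letters were thus more frequent among these promoters, and ISRE and octamer letters nearly as frequent. By list, the E2F letters stood in 40.0% of licensing promoters and 37.5% of polymerase promoters but in 1 of 17 nucleotide supply promoters (5.88%), the CHR letters in 71.9% of mitosis promoters, and the ISRE letters in 58.8% of promoters of interferon-stimulated genes. Among the histone genes that were higher, 91.7% of 12 promoters held a CCAAT box and 75% a TATA box.

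The genes lower in S-phase ECs were few. The 8 genes at least 2-fold lower in both libraries were Nts, Gja4, Slfn5, Kdm5b, Pgf, Ifit1, Gal and Cxcr4. Nts, the neuropeptide neurotensin, stood at 19.7 CPM against 151 in PBS and at 6.12 against 55.6 in cGAMP, where it was higher in S-phase ECs (log2 ratio of 0.59) once the limits of both scores were set within each library. Gja4, the arterial gap junction protein connexin 37, stood at 20.3 CPM (18 to 22.8) against 57.6 in PBS and 7.35 CPM (5.68 to 9.35) against 24.9 in cGAMP. Pgf, placental growth factor, stood at 106 CPM (100 to 111) against 261 and at 42.3 CPM (38.2 to 46.8) against 167. Cxcr4, the receptor of Cxcl12, stood at 45.2 against 91.6 CPM and 18.7 against 43.3 CPM. Pgf, Gal and Cxcr4 are markers of tip-like ECs, and Gja4 of arterial ECs. Over the whole arterial list 6 of 14 genes were at least 2-fold lower in each library, with medians of -0.94 and -0.90, and of 20 tip-like markers 4 were in each, with medians of -0.22 and -0.14. Col4a1, a basement membrane collagen and the most abundant tip-like marker, stood at 2452 against 2662 CPM in PBS and differed little. Stalk-like markers stayed within 2-fold, with medians of -0.11 and -0.25. For the arterial list the medians against the G2/M ECs were 0.12 in PBS and 0.23 in cGAMP, so that the lower arterial levels were shared with the G2/M ECs. Log2 ratios over the G2/M ECs, in PBS and cGAMP, were within 2-fold for Slfn5 (0.04 and -0.10), Pgf (0.19 and 0.07) and Kdm5b (0.28 and -0.33). So were those of Cxcr4 (0.07 and 0.39), Gja4 (0.90 and -0.03) and Ifit1 (0.86 and -0.42). Nts (-0.35 and -1.11) and Gal (0.04 and -2.87) were past 2-fold lower in cGAMP only.

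Interferon-stimulated genes were lower in S-phase ECs in 37 of 39 measured genes in PBS and 39 of 41 in cGAMP, with medians of -0.35 and -0.46, and 4 passed 2-fold in each library. Ifit1, an antiviral RNA-binding protein, stood at 22.0 CPM (19.6 to 24.6) against 48.5 in PBS and 55.0 CPM (50.3 to 60.1) against 124 in cGAMP. Irf7, the interferon regulatory factor that amplifies type I interferon, stood at 59.2 against 86.9 CPM in PBS and 528 against 672 CPM in cGAMP. Cxcl10, a chemokine of T cells, was an exception, at 141 against 84.1 CPM and 339 against 229 CPM. One cell held 39.3% of the Cxcl10 UMIs of the PBS S-phase ECs and 1 cell 23.3% in cGAMP. Without these cells Cxcl10 stood at 85.9 CPM in PBS and 262 CPM in cGAMP, so the PBS exception rested on 1 cell. The MHC class I list had medians of -0.19 and -0.35. Against the G2/M ECs the interferon list was not lower, with medians of 0.19 and 0.15.

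The gradient was also seen by cell. When ECs were thinned and ranked within their library by the mean of the interferon list, S-phase ECs made up 14.3% (12.0 to 16.9) of the lowest tertile, 10.7% of the middle and 6.26% (4.69 to 8.15) of the highest in PBS, and 15.3% (12.1 to 19.0), 9.95% and 5.20% (3.33 to 7.71) in cGAMP. The intervals of the lowest and the highest tertile lay apart in both libraries. The endothelial identity list also had a gradient, at 15.4%, 10.2% and 5.64% in PBS and 12.6%, 11.5% and 6.33% in cGAMP, as had the arterial list, at 14.6%, 10.2% and 6.50% in PBS and 12.4%, 10.4% and 7.69% in cGAMP. In PBS the gradients of all 3 lists were alike in size, and in cGAMP that of the interferon list was the steepest, without a test of the difference. The G2/M ECs also made up less of the highest tertile than of the lowest. Their shares by the interferon list were 13.2%, 9.80% and 6.13% in PBS and 7.67%, 2.94% and 2.94% in cGAMP. By the endothelial list they were 12.4%, 9.44% and 7.36% in PBS and 6.32%, 4.98% and 2.26% in cGAMP. By the arterial list they were 12.7%, 9.93% and 6.50% in PBS and 5.19%, 5.88% and 2.49% in cGAMP. For stalk-like markers the shares were 10.7%, 12.5% and 8.10% in PBS and 11.1%, 12.4% and 7.01% in cGAMP, with no steady order.

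**Figure D4:**
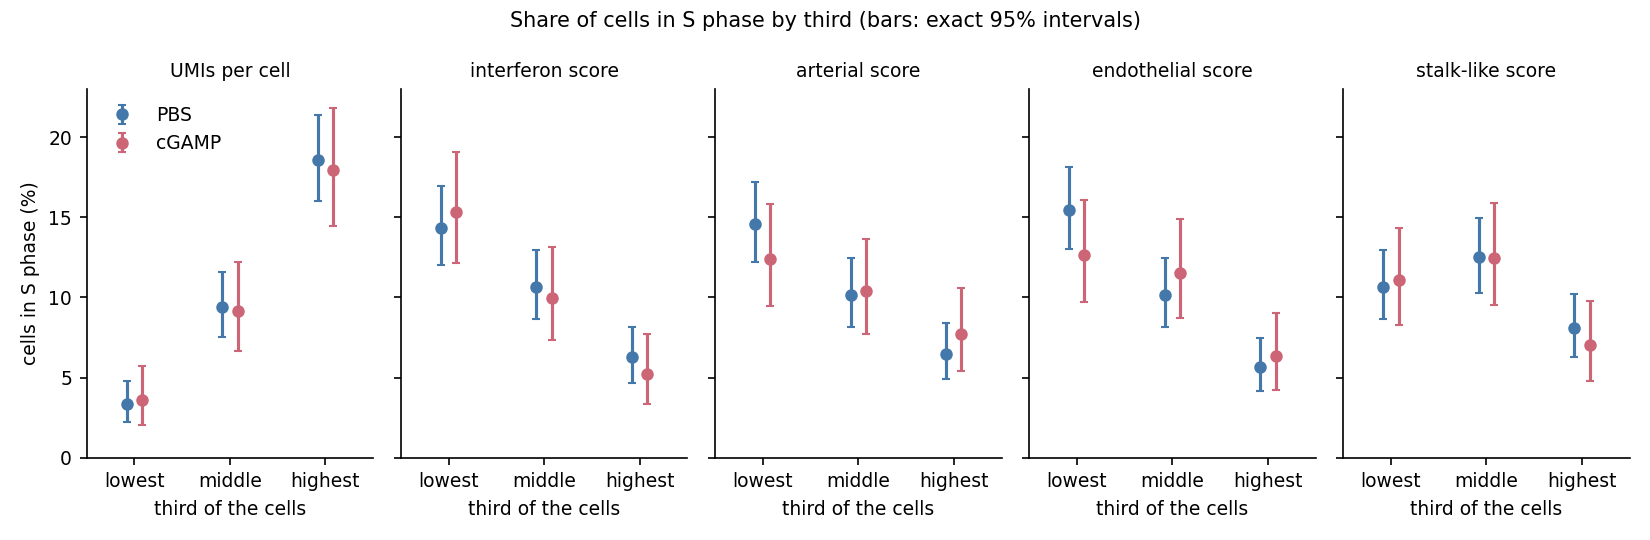
Share of S-phase ECs (y axis, percent with exact binomial intervals) in the lowest, middle and highest tertile (x axis) of ECs by UMIs per cell and by the mean of 4 gene lists after thinning, for PBS and cGAMP. The share goes up with UMIs per cell, goes down from 14.3% to 6.26% with the interferon list in PBS and from 15.4% to 5.64% with the endothelial list, and has no steady order with the stalk-like list.

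Inhibitors of cyclin-dependent kinases did not move together. Cdkn2c and Cdkn2d, of the INK4 family, were at least 2-fold higher in S-phase ECs in both libraries, with Cdkn2d at 73.8 against 35.1 CPM and 60.5 against 23.5 CPM. Cdkn1a, the p21 inhibitor and a p53 target, stood at 279 against 235 CPM in PBS and 420 against 384 CPM in cGAMP and was not lower in S-phase ECs. Btg1 and Btg2, antiproliferative genes, were lower without passing 2-fold. Of 17 measured p53 targets, 0 passed 2-fold in either library (medians of -0.13 and -0.20), and the respiratory chain list did not move (0.08 in both).

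The remaining comparison was that of cGAMP with PBS within the S-phase ECs. With the same minimum of 20 CPM, 84 of 6145 genes (1.37%) were at least 2-fold higher and 59 (0.96%) at least 2-fold lower in cGAMP-treated S-phase ECs. In the other ECs 108 of 6008 (1.8%) were higher and 105 (1.75%) lower. With the 5 CPM minimum of the lists, 1.61% were higher and 1.57% lower in S-phase ECs, and 1.93% and 2.28% in the other ECs. The median over all measured genes was -0.05 and -0.08. The S-phase ECs of the 2 conditions had different UMIs per cell, as above, and the 2 libraries differ in more than the treatment.

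Interferon-stimulated genes were higher in cGAMP-treated S-phase ECs in 40 of 40 measured genes, 27 of them at least 2-fold, with a median of 1.47. In the other ECs 28 of 41 passed 2-fold, with a median of 1.51. The summed leucocyte markers of the S-phase ECs went with it from 21.6 to 50.9 CPM, and without cells with a UMI of Ptprc, S100a8 or S100a9 the median of the interferon list was 1.1. Irf7 stood at 59.2 CPM (55.2 to 63.4) in PBS and 528 CPM (513 to 543) in cGAMP, and at 86.9 and 672 CPM in the other ECs. Its log2 ratios were 3.16 (3.05 to 3.26) and 2.95. Bst2, the antiviral tetherin and the most abundant gene of the list, went from 614 to 1886 CPM, a ratio of 1.62 against 1.70 in the other ECs. Both genes stood higher in cGAMP-treated cells of each group with intervals far apart. After thinning, a UMI of Irf7 was found in 15.7% of PBS and 84.4% of cGAMP-treated S-phase ECs, and in 23.1% and 87.5% of other ECs. Over the genes measured in both groups, the median difference of the 2 ratios, S-phase minus other ECs, was -0.10. This difference changed sign under 2 of the alternatives given at the end, so neither cell group can be said to have responded more.

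Among genes at 20 CPM or more, the complement C1 inhibitor Serping1 had the largest ratio. It stood at 6.75 CPM (5.45 to 8.27) in PBS and at 134 CPM (127 to 142) in cGAMP S-phase ECs, and at 6.37 and 199 CPM in the other ECs. Its log2 ratios were 4.31 and 4.97. Cfb, complement factor B, went from 2.90 to 56.0 CPM, a ratio of 4.27. Csf3, the granulocyte colony-stimulating factor, went from 2.98 to 50 CPM, a ratio of 4.07. These genes were close to absent from PBS S-phase ECs. H2-T23, a non-classical MHC class I gene, went from 29.0 to 201 CPM (2.79). H2-K1, a classical class I gene, went from 890 to 2688 CPM (1.59), and B2m, the light chain shared by class I molecules, from 1080 to 2666 CPM (1.30). All 16 genes of the class I list were higher in S-phase ECs and 10 at least 2-fold, with a median of 1.19 against 1.36 in the other ECs. Of 27 measured TNF and NF-kB genes 4 passed 2-fold (5 in the other ECs), with a median of 0.11 against 0.38. Of 30 apoptosis genes 0 were at least 2-fold higher and 1, Bmf, was at least 2-fold lower, with a median of 0.02.

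**Figure D5:**
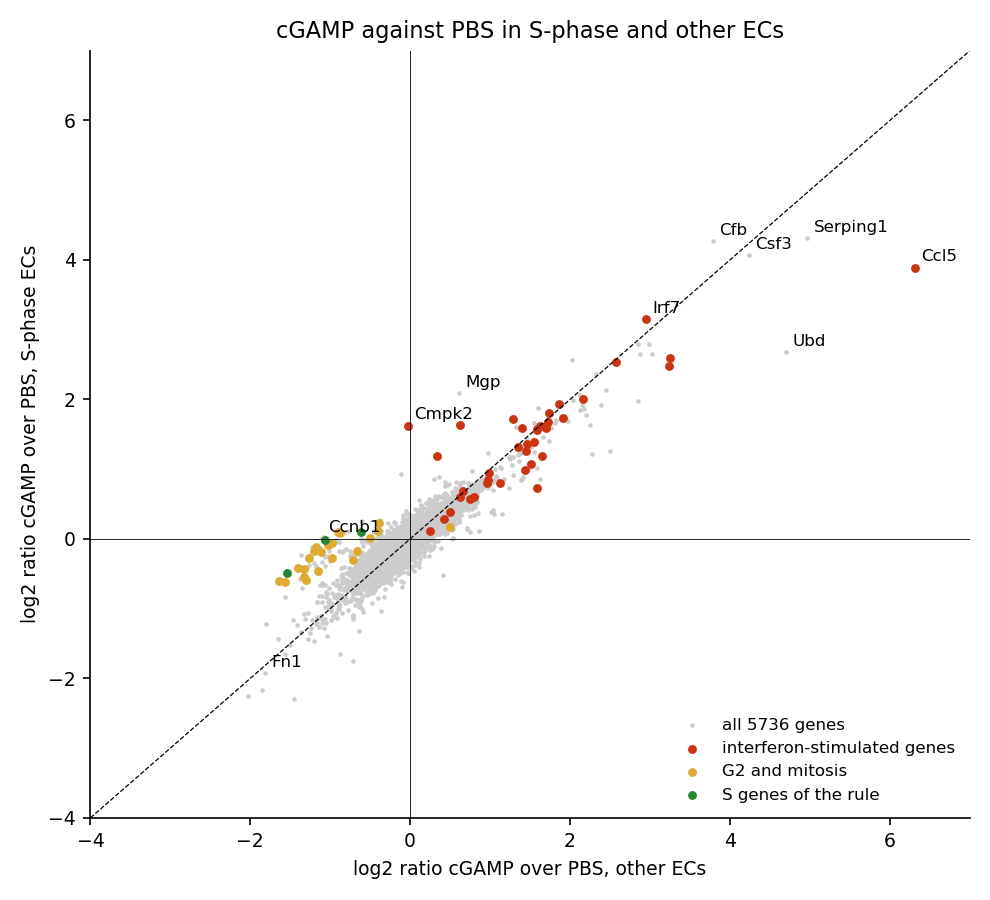
Log2 ratio of cGAMP over PBS in S-phase ECs (y axis) against the same ratio in the other ECs (x axis), 1 point per gene (5736 genes at 20 CPM or more in both cell groups, haemoglobin genes left out), with named genes labelled and the line of equal ratios. Irf7 and Csf3 stand near the line, Ccl5 and Ubd stand below it with lower ratios in S-phase ECs, and Cmpk2 stands above it. Mitotic genes and the histone genes Hist1h1b and Hist1h2ap of the rule also stand above it.

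Apart from haemoglobin genes, which rest on 1 cell as given below, Ccl5, which attracts T cells and monocytes, had the largest difference between the cell groups with all cells counted. It went from 6.02 CPM (4.80 to 7.47) to 89.3 CPM (83.2 to 95.7) in S-phase ECs and from 6.55 to 522 CPM in the other ECs, with log2 ratios of 3.89 and 6.32. The difference of the ratios was -2.43, and -0.93 when S-phase ECs were chosen by the 4 genes of the S score that are not histones. In PBS, its 83 UMIs in S-phase ECs came from 5 cells, and 61.4% of them from 1 cell. Without the S-phase EC with the most Ccl5 UMIs in each library, its log2 ratio was 5, against 6.32 in the other ECs. Without the top cells for Ubd, given below, its ratio was 2.79 against 4.70, a larger gap than that of Ccl5. The rank of Ccl5 above Ubd thus rests on these cells. The share of cells with a Ccl5 UMI in cGAMP did not separate the groups, at 18.5% (12.4 to 26.1) of S-phase and 26.5% (24 to 29.1) of other ECs after thinning, and 56.9% and 54.6% before it. The cells with the highest levels did. At 5 or more UMIs of 5000, a limit chosen after the values were seen, stood 3 of 135 cGAMP-treated S-phase ECs (2.22%, 0.461 to 6.36) and 137 of 1192 other ECs (11.5%, 9.74 to 13.4). The highest S-phase EC held 1421 CPM and the highest of the other ECs 20539 CPM. The groups thus had intervals apart for the share of cells with high Ccl5 and overlapping intervals for the share with any UMI.

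Ubd, the ubiquitin-like FAT10, came next after Ccl5, from 44.9 to 288 CPM in S-phase ECs (2.68) and from 16.5 to 428 CPM in the other ECs (4.70). The difference of the ratios, -2.02, came no nearer to 0 than -1.50 under the alternatives. Its shares at 5 or more UMIs after thinning in cGAMP were 7.41% (3.61 to 13.2) and 11.7% (9.89 to 13.6), which overlapped. One cell held 26.3% of its UMIs in PBS S-phase ECs and 1 cell 20.8% in cGAMP. Irf7 at the same limit stood in 16.3% (10.5 to 23.6) of cGAMP-treated S-phase ECs and 25.8% (23.4 to 28.4) of other ECs, which just overlapped, and Cxcl9, a T cell chemokine, in 28.9% (21.4 to 37.3) and 33.6% (30.9 to 36.3), which also overlapped. Serping1 reached it in 0.741% (0.0188 to 4.06) and 5.29% (4.08 to 6.71), with limits that nearly touch and 1 S-phase EC behind the first share. Without thinning, at 1000 CPM, the shares were 2.92% (0.801 to 7.31) and 19.7% (17.5 to 22.1) for Irf7, which lay apart, and 0% (0 to 2.66) and 2.24% (1.48 to 3.25) for Serping1, which overlapped, so these 2 genes depend on the thinning. For Ccl5 the unthinned shares were 2.19% (0.454 to 6.27) and 10.6% (8.88 to 12.4) and lay apart as well. Nupr1, a stress-induced chromatin protein, went from 9.29 to 22.2 CPM in S-phase ECs and from 14.5 to 81.9 CPM in the other ECs. Lyve1, the hyaluronan receptor of lymphatic ECs, went from 15.7 to 36.4 CPM and from 9.23 to 44.8 CPM.

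Cmpk2, an interferon-induced mitochondrial nucleotide kinase, went the other way. It went from 9.22 CPM (7.68 to 11) to 28.4 CPM (25 to 32.1) in S-phase ECs and stood at 28.2 and 27.6 CPM in the other ECs, which gives a difference of 1.65 between the log2 ratios, and of 0.85 without the 5% of cells with the most UMIs. In S-phase ECs 1 cell held 21.3% of the PBS and 1 cell 29.4% of the cGAMP UMIs. In the G2/M ECs Cmpk2 went from 7.80 CPM (6.28 to 9.58) to 24.3 CPM (19.6 to 29.8). Its low PBS level and higher cGAMP level were thus shared with the G2/M ECs. Mgp, matrix Gla protein, had a difference of 1.48, but 86.9% of its UMIs in cGAMP-treated S-phase ECs came from 1 cell. Without the cell with the most UMIs of the gene in each library, Mgp went from 9.69 to 7.49 CPM. Ccl5 without its top cells went from 2.34 to 74.7 CPM (log2 ratio of 5), and Cxcl9 from 99.1 to 737 CPM (2.90). Of these, Mgp turned its direction and Ccl5 and Cxcl9 kept it.

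S-phase ECs of both libraries were chosen by the same limits on replication genes, so similar replication levels in the 2 treatments follow in part from the choice. Licensing genes had a median log2 ratio of 0.21 in cGAMP over PBS, polymerases and fork proteins 0.14, nucleotide supply 0.15, chromatin assembly 0.21 and repair 0.15, and 0 genes of these 5 lists passed 2-fold in either direction. Mcm7 went from 99.4 to 123 CPM and Pcna from 141 to 185 CPM. In the other ECs the medians were 0.21, 0.11, 0.21, 0.13 and -0.13. Cohesion genes were slightly lower in both groups, at -0.19 and -0.30. The only entry gene past 2-fold in S-phase ECs was Ccnd2, cyclin D2, at 1.60, and it stood at 1.32 in the other ECs.

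The mitotic genes had a median of -0.18 in S-phase ECs, with 0 of 35 past 2-fold, and of -1.03 in the other ECs, with 19 of 35 at least 2-fold lower. Birc5, the survivin subunit of the chromosomal passenger complex, went from 279 CPM (271 to 288) to 257 CPM (246 to 267) in S-phase ECs and from 118 to 52.0 CPM in the other ECs. Mki67 went from 285 to 188 CPM and from 93.4 to 30.0 CPM. Among the ECs in neither class the median of the list was -0.92 and among the G2/M ECs -0.09. The former class is defined by the limits only, with G2/M scores up to 0.955 in PBS and 0.937 in cGAMP. It can therefore hold cycling cells that lie under the limits. The lower mitotic level of cGAMP-treated ECs as a whole stood beside a smaller share of G2/M cells and a lower level in that class. It also stood beside smaller differences within the S-phase and G2/M ECs, which follow in part from the shared limits of the rule. The part of each was not tested. With the limits of both scores set within each library the median in S-phase ECs was -0.75, so its size depends on where the limits fall. Clustered histones had a median of 0.08 in S-phase ECs and -0.69 in the other ECs, and the former turned to -0.47 with limits within each library, as that of the S genes of the rule turned from 0.09 to -0.16. Within the list the genes of S-phase ECs diverged, as Hist1h1b went from 273 to 194 CPM and Hist1h2ak from 47.5 to 99.5 CPM, with intervals apart in opposite directions. Cdkn1a was higher in both groups of cGAMP-treated cells, from 279 to 420 CPM (0.59) in S-phase and from 235 to 384 CPM (0.71) in other ECs.

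The lowest ratios of cGAMP over PBS in S-phase ECs were those of the haemoglobin genes Hbb-bs, Hbb-bt, Hba-a1 and Hba-a2. One PBS cell held 6145 of the 6154 haemoglobin UMIs of PBS S-phase ECs, so these ratios rest on that cell. Next were Cpe, a carboxypeptidase of peptide processing, at 30.5 CPM (27.6 to 33.5) and 6.23 CPM (4.71 to 8.10), followed by Gm47283, a predicted gene, at 213 and 44.8 CPM, and Antxr1, an anthrax toxin receptor and tumour endothelial marker, at 21.5 and 4.79 CPM. Fn1, fibronectin, went from 180 to 47.5 CPM (-1.92) in S-phase ECs and from 221 to 62.7 CPM (-1.82) in the other ECs. Pgf went from 106 to 42.3 CPM in S-phase ECs and Vwf, von Willebrand factor, from 196 to 96.0 CPM. Arterial markers had a median of -0.85 with 6 of 13 at least 2-fold lower, and tip-like markers of -0.45 with 4 of 20 (other ECs -0.84 and -0.52). Selp, P-selectin, a stalk-like marker, went from 181 CPM (174 to 189) to 315 CPM (303 to 327) in S-phase ECs and from 173 to 349 CPM in the other ECs. Apart from the haemoglobin genes, each gene named here stood on the same side of PBS in both cell groups. Of 111 genes past 2-fold between treatments in both cell groups, 0 went in opposite directions.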

How the data were processed

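ECs of 1 PBS-treated and 1 cGAMP-treated LLC tumour were sorted and sequenced on a droplet platform. According to the submitters' processing notes, reads were handled with Cell Ranger 3.0.0 on mm10 and Seurat 3.1.1. Per the study's methods, cells with fewer than 500 genes or over 10% mitochondrial UMIs, genes in fewer than 3 cells and non-endothelial clusters were removed. The deposited values are the natural log of 1 plus UMIs per 10000 of the cell, as the authors made them. Whole UMIs were recovered from them (100% of values within 0.01 of a whole number), with 92081146 UMIs in 2517 PBS cells (median 29780) and 63366746 in 1340 cGAMP cells (median 41177.5), over 17139 genes. The libraries shared 1 barcode. No doublet caller was run.

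UMIs were summed over the S-phase ECs and the other ECs of each library and given as CPM with exact Poisson intervals. Shares have exact Clopper-Pearson intervals. A sum at or under 3 UMIs was set to 3 for a ratio, and no gene with both sums there was given one. Ratios needed 20 CPM on either side, or 5 CPM for gene lists. For shares and scores by cell each cell was thinned to 5000 UMIs, which left out 70 PBS and 13 cGAMP cells. No p-values were computed, since each condition had 1 library and cells of 1 mouse are not replicates. The gene lists, the rule and its members were chosen with earlier results of these data known. Genes named are those of the rule, the 6 most abundant and the extremes of each list, the 10 most extreme in each direction per comparison and 8 for the difference of ratios, and any others were chosen after their values were seen. Promoters are from RefSeq (GRCm38.p6), matched by symbol. The interval coverage was tested on simulated Poisson counts only, which cannot show how the intervals hold for UMIs that are uneven between cells. Python 3.11.15, numpy 2.4.6, scipy 1.17.1, pandas 2.3.3 and matplotlib 3.10.9 were used. Alternatives were other limits of the S score, no G2/M exclusion, scores without histone genes, limits set within each library, other scalings, other CPM minima and other cell filters. The values of 1 gene of the repair list are not reported here.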

Additional observations from a re-analysis of the deposited data

How the results depend on the processing

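With 18 alternatives, 115 of 133 recomputed values that answer a comparison stayed within their interval (for counts, within 1.5 times), 16 moved and 2 reversed. For gene lists 1253 of 1349 medians stayed and 96 moved; none that was past 2-fold changed sign, but 27 nearer to 0 did, over 9 medians, among them clustered histones, cGAMP over PBS (0.08 to -0.47), and polymerases (0.14 to -0.03). The difference of the interferon response between S-phase and other ECs (-0.10) was -0.26 with 10% of cells by the S score, -0.0237 with 20%, -0.24 with the 4 non-histone genes, -0.17 without cells with a UMI of Ptprc, S100a8 or S100a9 and -0.16 without the 5% of cells with most UMIs, and it reversed to 0.0226 without the G2/M exclusion and to 0.00907 at up to 5% mitochondrial UMIs. Its direction is therefore not settled. The interferon response itself (1.47) was 1.64 under both of the last settings and at lowest 1.1, without cells with a UMI of Ptprc, S100a8 or S100a9. The difference in the share of S-phase ECs (-0.23 percentage points, cGAMP minus PBS) was -2.76 without the G2/M exclusion and 1.07 with the 4 non-histone genes. The 236 genes higher in S-phase ECs became 373 with 5 CPM and 1040 with no minimum, and the 143 genes different between treatments became 304 and 1170 (higher 154 and 655, lower 150 and 515). Named genes that reversed were the difference of Mgp (-1.62 with 10% by the S score, -0.95 without top cells), Nts over other ECs in cGAMP (0.59 with limits within each library, 0.28 with the 4 genes, 0.55 without the 5% with most UMIs), the differences of Ccnb1 (-0.0816), Hmmr (-0.23) and Hist1h2ap (-0.66) with limits within each library, Hba-a1 (1.02; difference 1.05), the difference of Hbb-bs (0.32) and that of Gal (0.00693) without the 5% with most UMIs, and Hba-a1 (1.02; difference 0.16) without the haemoglobin cell. The alternatives without the haemoglobin cell and without top cells were chosen after seeing the data. UMI ratios of S-phase over other ECs ranged from 1.47 to 1.69 in PBS and 1.40 to 1.56 in cGAMP. Causes were not tested. No paired analysis was possible because each condition had 1 library. With 1 mouse per condition, the depth of 137 cGAMP S-phase cells limits genes under about 5 CPM.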
